A study of Homo sapiens with 6 samples.

Results

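The genes described here are the core of the NRF2 antioxidant response: NFE2L2, which encodes the transcription factor NRF2, its inhibitor KEAP1, and 8 genes that NRF2 is known to activate, namely NQO1, HMOX1, GCLC, GCLM, TXNRD1, SRXN1, SLC7A11 and AKR1C1. These 10 members were taken by gene symbol, and all 10 were among the 20026 genes of the table. RNA-seq was done on HepG2 cells, a human liver cancer cell line, in 3 groups of 2 libraries. The groups were a scramble control (Scr, labelled WT), a knockout of miR-23a (miR-23a KO) and a knockout of miR-27a (miR-27a KO). Per the study's methods, a Cas9 plasmid with a pair of guides on either side of the mature miRNA was used for each knockout and the empty plasmid for the control, and colonies were grown after sorting of single cells. A group may therefore stand for few clones. The labels do not say whether the replicates of a group are separate clones, separate cultures or repeat libraries, so the p-values below measure only the spread between these libraries, which may be technical. The loci of the edited miRNAs were not analysed here, so the grouping is that of the labels.

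NRF2 is held at a low level in unstressed cells because KEAP1, a cysteine-rich adaptor of a CUL3 ubiquitin ligase, marks it for degradation. Oxidants and electrophiles modify KEAP1, NRF2 then accumulates, pairs with small MAF proteins and binds antioxidant response elements in front of genes for glutathione synthesis, thioredoxin reduction, quinone reduction and haem breakdown. In the liver this response is known for its role in the handling of drugs and reactive metabolites. NRF2 is regulated largely through protein stability, and the libraries measure RNA only.

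Depth lay between 14405250 and 16515261 counts per library, and levels are given as CPM, counts scaled to a common library size with edgeR's TMM factors. All 10 hepatocyte markers were detected, and their summed level was 30049 and 37255 CPM in Scr, 31788 and 32860 CPM in miR-23a KO, and 25877 and 25796 CPM in miR-27a KO. Within that list ALB, AFP and FGB were lower in miR-27a KO than in Scr, by a log2 fold change of -2.59 (SE 0.20), -4.11 (SE 0.23) and -2.05 (SE 0.32), and TF was higher (1.25, SE 0.20). Endothelial markers summed to at most 6.83 CPM in any library. The other marker sums lay between 5.12 and 29.8 CPM for fibroblasts, between 72.4 and 166 CPM for leukocytes, and between 247.8 and 565 CPM for cholangiocytes. In miR-27a KO, PDGFRB (-2.12, SE 0.30) and CD68 (-0.58, SE 0.08) were called lower and EPCAM (1.33, SE 0.12) higher. The part of these marker differences in the results for the members was not tested.

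The libraries differed in how well replicates matched. Of 13556 genes tested in both knockouts, 7.15% differed by more than 2-fold between the Scr libraries, 46.6% between the miR-23a KO libraries and 2.46% between the miR-27a KO libraries. Squared deviations of replicates were set against sampling noise for genes of 40 counts or more, and the median ratio was 12.0 for Scr, 122 for the miR-23a KO pair and 1.81 for the miR-27a KO pair. Each result on miR-23a KO therefore rests on libraries that stand apart from each other.

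The 3p forms of the miRNAs that the knockouts are named for are shown because their seeds were searched for in the members. Other miRNAs were not analysed here. The sequences are from RefSeq (GRCh38.p14), with the seed, bases 2 to 8, in capitals. They lie on the minus strand of chromosome 19, at chr19:13836595-13836615 for hsa-miR-23a-3p and chr19:13836447-13836467 for hsa-miR-27a-3p.
hsa-miR-23a-3p: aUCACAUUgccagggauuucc
hsa-miR-27a-3p: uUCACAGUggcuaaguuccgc

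Exact matches to the complement of each seed were looked for in the annotated 3'-UTR of the longest coding transcript (GENCODE release 29, GRCh38). A match to the miR-23a-3p seed was present in 3 of the 10 members (AKR1C1, GCLM and TXNRD1) and in 19.4% of 12104 tested genes with a 3'-UTR. For miR-27a-3p it was present in 2 of the 10 (NFE2L2 and SLC7A11) and in 16.9% of the same genes. The median 3'-UTR of those genes had 1224 bases, and the shares were not matched to the members by length. The NFE2L2 window lies at chr2:177230706-177230734 on the minus strand, and the seed match in it starts at base 62 of a 3'-UTR of 480 bases. SLC7A11 held 3 matches in a 3'-UTR of 7859 bases, and the window nearest the stop codon lies at chr4:138171537-138171565 on the minus strand. The TXNRD1 window lies at chr12:104350238-104350266 on the plus strand and the GCLM window at chr1:93885686-93885714 on the minus strand. AKR1C1 held 2 matches in a 3'-UTR of 5541 bases, and the earlier window lies at chr10:4979353-4979381 on the plus strand. The shortest coding transcript of AKR1C1 has 858 bases in all and was not searched. A match is a description of letters and not evidence of binding. The windows are printed with the seed match in capitals.
NFE2L2, miR-27a-3p: taaaagctcctACTGTGAtgtgaaatgct
SLC7A11, miR-27a-3p: tagatgtctatACTGTGAaaagtgttttc
TXNRD1, miR-23a-3p: aaaaacaaaacAATGTGAaacattaaaat
GCLM, miR-23a-3p: gcattcagagaAATGTGAagcttgtttta
AKR1C1, miR-23a-3p: tagaagatcacAATGTGAactctgcatct

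The core letters of the antioxidant response element, TGAC, 3 bases of any kind and GC, on either strand, were searched in RefSeq promoters of 300 bases (250 before and 50 after the start site, GRCh38.p14). Of the members, 8 matched 11 promoters, and 4 of these promoters, belonging to KEAP1, GCLM and TXNRD1, held the letters. They were present in 13.3% of all 35116 promoters. Windows around 3 of the matches are shown because they belong to a gene of each role, the sensor, glutathione synthesis and thioredoxin reduction. They lie at chr19:10502783-10502812 (KEAP1, minus strand), chr1:93909445-93909474 (GCLM, minus strand) and chr12:104286920-104286949 (TXNRD1, plus strand), and the matched letters, on the strand opposite to each gene, are in capitals. Elements farther from a start site are outside these windows. KEAP1 and TXNRD1 held further matches, which are not shown.
KEAP1: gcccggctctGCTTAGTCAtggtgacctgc
GCLM: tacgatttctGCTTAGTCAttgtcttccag
TXNRD1: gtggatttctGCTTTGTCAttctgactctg

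The question for each knockout was whether NRF2 pathway transcripts differed from Scr. In miR-27a KO, 1 of the 10 members, KEAP1, was called lower and 0 were called higher at an adjusted p under 0.05, against 9.12% and 4.91% of the 13820 genes tested. Without overlap between the libraries, 5 members were lower (KEAP1, NQO1, HMOX1, SLC7A11 and AKR1C1) and 2 were higher (GCLC and TXNRD1), where 31.9% of all genes were lower and 32.4% higher. The median log2 fold change was -0.28 over the members and 0.01 over all genes tested. With counts corrected for GC content and length in each library, it was -0.18 over the members and 0.06 over all genes. Without Scr replicate 1 the members' median was -0.16. An unadjusted p under 0.05 was reached by 4 members and by 32.2% of all genes. In bulk RNA, fewer cells of a kind and less RNA per cell cannot be told apart.

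In miR-23a KO, 0 of the 10 members were called by edgeR's quasi-likelihood test, and 0.0% of the 13786 genes tested. The smallest adjusted p of any gene in that edgeR quasi-likelihood test after Benjamini-Hochberg adjustment was 0.11, an unadjusted p under 0.05 was reached by 0 members and 332 genes, and DESeq2 called 0 members and 63 genes. Without overlap, 1 member was lower (NQO1) and 0 were higher, against 14.9% and 8.87% of all genes. The median log2 fold change was 0.23 over the members and 0.16 over all genes tested. With the GC and length correction it was -0.03 over the members and 0.09 over all genes. Without miR-23a KO replicate 2 these medians were -0.41 and -0.08. Both knockouts were compared with the same Scr libraries, so their values are given side by side and not as independent results.

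**Figure D1:**
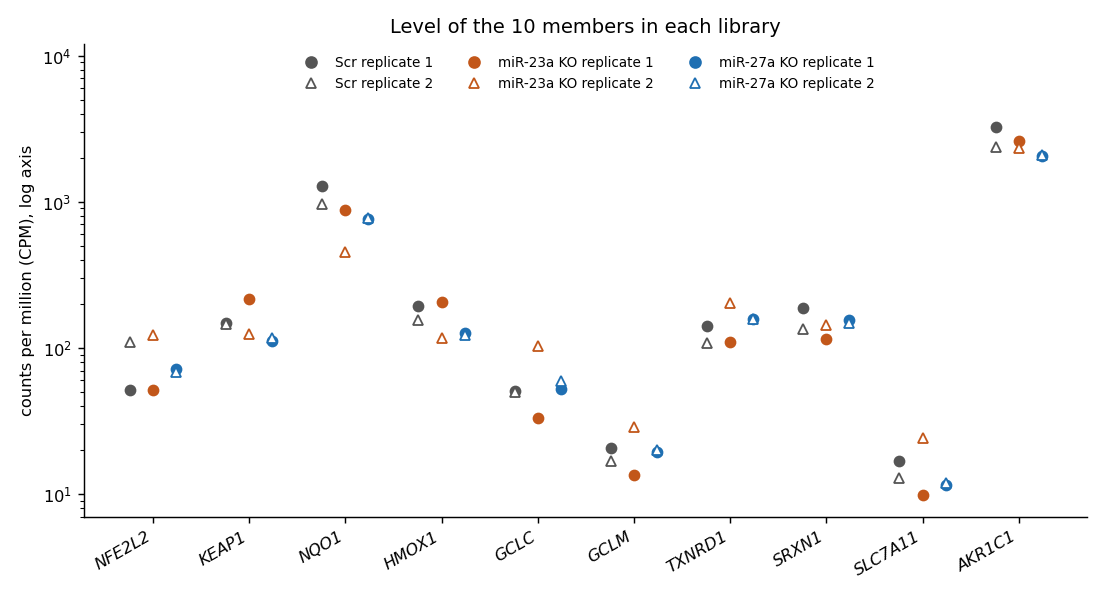
Level of each of the 10 members in CPM, on a log axis, in the 6 libraries, with circles for replicate 1 and open triangles for replicate 2. The miR-27a KO libraries nearly coincide for each gene, while the miR-23a KO libraries lie farther apart than those of Scr for 8 of the 10 genes, as for GCLC with 33.3 and 102.7 CPM.

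NFE2L2 (Entrez gene 4780, chr2:177227595-177392697, minus strand) is the gene of the pathway's transcription factor. Its level was 51.6 and 110.2 CPM in Scr, 51.3 and 122 CPM in miR-23a KO, and 72.0 and 68.3 CPM in miR-27a KO. Replicate 1 was the low library and replicate 2 the high one in both Scr and miR-23a KO, and the miR-27a KO libraries lay between the Scr libraries. The fitted log2 fold change was 0.19 (SE 0.60) in miR-23a KO and -0.21 (SE 0.34) in miR-27a KO, both smaller than their errors. In miR-23a KO it was -0.66 when replicate 2 was left out. The direction in miR-27a KO depended on the control library: it was -0.65 without Scr replicate 1 and 0.44 without Scr replicate 2. A difference in NFE2L2 RNA was therefore not resolved by these libraries.

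KEAP1 (Entrez gene 9817, chr19:10486120-10503741, minus strand) encodes the sensor that marks NRF2 for degradation. Its level was 147 and 146 CPM in Scr, 218 and 124 CPM in miR-23a KO, and 112 and 117 CPM in miR-27a KO. Both miR-27a KO libraries were below both Scr libraries, while the miR-23a KO libraries lay on either side of them. KEAP1 had a log2 fold change of -0.37 in miR-27a KO (SE 0.08, 0.776-fold), with an adjusted p of 0.0393 in edgeR's quasi-likelihood test after Benjamini-Hochberg adjustment. When counts were corrected for GC content and length in each library, the value was -0.07 (SE 0.10) and the same edgeR quasi-likelihood test after Benjamini-Hochberg adjustment gave an adjusted p of 0.669, within a range of 0.00103 to 0.991 over all alternatives. Without the filter on low counts, in the fit of all 6 libraries, with a replicate block, and with either miR-27a KO library left out, the call was lost while the log2 fold change stayed between -0.33 and -0.39. KEAP1 has the highest GC content of the members, 60.3%. In miR-23a KO the log2 fold change was 0.27 (SE 0.45), and -0.20 without replicate 1.

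The ratio of KEAP1 to NFE2L2 CPM in the same library was 2.85 and 1.33 for the Scr libraries, 4.24 and 1.01 for those of miR-23a KO, and 1.55 and 1.71 for those of miR-27a KO. The Scr and miR-23a KO ranges each held both miR-27a KO values, so the ratio did not separate the groups.

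**Figure D2:**
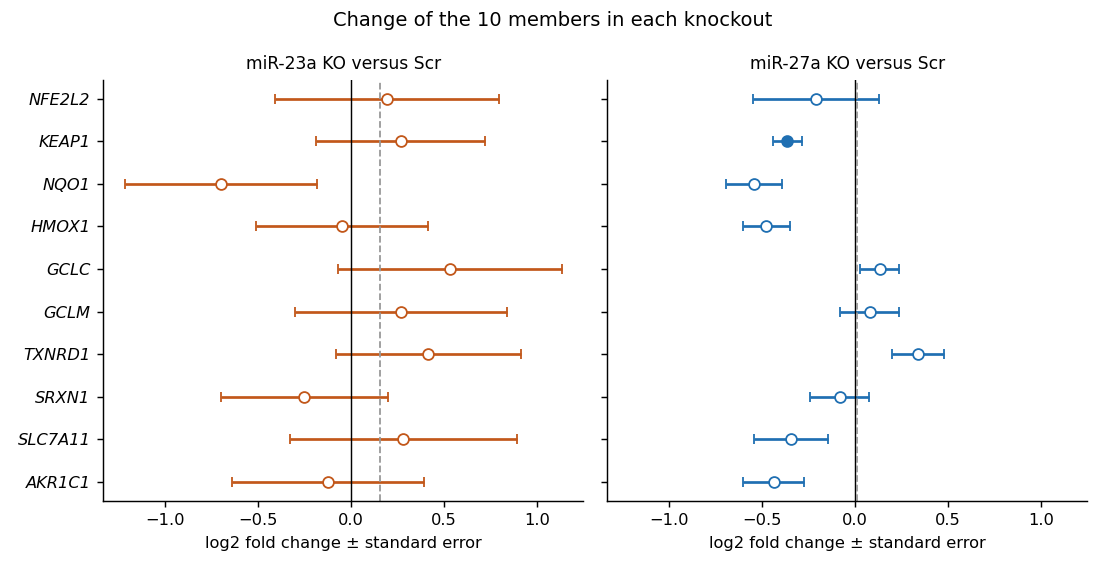
Fitted log2 fold change of the 10 members in miR-23a KO (left) and miR-27a KO (right) against the same Scr libraries, with bars of 1 standard error. The filled point is KEAP1 in miR-27a KO (-0.37), the call at an adjusted p under 0.05, and the dashed line is the median over all genes tested (0.16 left, 0.01 right).

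NQO1 (Entrez gene 1728, chr16:69706996-69726951, minus strand) encodes a quinone reductase and is a widely used readout of NRF2 activity. Its level was 1275 and 957 CPM in Scr, 876 and 455 CPM in miR-23a KO, and 759 and 776 CPM in miR-27a KO. NQO1 was the member with all 4 knockout libraries below both Scr libraries and no overlap in either comparison. The log2 fold change was -0.54 (SE 0.15, 0.686-fold) in miR-27a KO, with an adjusted p of 0.0736 in edgeR's quasi-likelihood test after Benjamini-Hochberg adjustment. It missed the threshold there, and the log2 fold change was -0.32 without Scr replicate 1 and -0.73 without Scr replicate 2. DESeq2 called it (Benjamini-Hochberg adjusted p = 0.00665), and edgeR's quasi-likelihood test after Benjamini-Hochberg adjustment called it with the GC and length correction (adjusted p = 0.0499), within a range of 0.00000506 to 0.977 over all alternatives. In miR-23a KO the log2 fold change was -0.70 (SE 0.52) and adjusted p was 1.00 in edgeR's quasi-likelihood test after Benjamini-Hochberg adjustment. Without miR-23a KO replicate 1 it was -1.25 (adjusted p = 0.0454, edgeR's quasi-likelihood test after Benjamini-Hochberg adjustment), and without replicate 2 it was -0.35.

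HMOX1 (Entrez gene 3162, chr22:35380361-35394214, plus strand) encodes the inducible haem oxygenase. Its level was 193 and 154 CPM in Scr, 207 and 117 CPM in miR-23a KO, and 127 and 123 CPM in miR-27a KO. The miR-27a KO libraries were below both Scr libraries, and the miR-23a KO libraries enclosed the Scr values. The log2 fold change in miR-27a KO was -0.48 (SE 0.13), and its adjusted p was 0.0649 in edgeR's quasi-likelihood test after Benjamini-Hochberg adjustment. DESeq2 called it (Benjamini-Hochberg adjusted p = 0.0228). With the GC and length correction the log2 fold change was -0.17 (SE 0.085); HMOX1 has a GC content of 58.1%, next to that of KEAP1. Uncorrected, the value was -0.30 without Scr replicate 1 and -0.63 without Scr replicate 2. In miR-23a KO the log2 fold change was -0.05 (SE 0.46), and 0.26 without replicate 2.

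GCLC and GCLM encode the catalytic and the modifier subunit of glutamate-cysteine ligase, the enzyme that sets the rate of glutathione synthesis. GCLC (Entrez gene 2729, chr6:53497341-53616970, minus strand) was at 50.8 and 50.2 CPM in Scr, 33.3 and 102.7 CPM in miR-23a KO, and 52.0 and 59.0 CPM in miR-27a KO. The miR-27a KO libraries were just above Scr, and the miR-23a KO libraries were the lowest and the highest of the 6, the widest range among the members. The log2 fold change was 0.13 (SE 0.11) in miR-27a KO and 0.53 (SE 0.60) in miR-23a KO. The former was 0.23 without miR-27a KO replicate 1, 0.05 without miR-27a KO replicate 2 and -0.0017 with the GC and length correction. Leaving out miR-23a KO replicate 1 gave 1.07 with an adjusted p of 0.0389 in edgeR's quasi-likelihood test after Benjamini-Hochberg adjustment, and leaving out replicate 2 gave -0.60, so the direction was set by which library was kept.

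GCLM (Entrez gene 2730, chr1:93885205-93909456, minus strand) was at 20.5 and 17.0 CPM in Scr, 13.5 and 28.9 CPM in miR-23a KO, and 19.5 and 20.2 CPM in miR-27a KO. Both knockouts overlapped Scr, with a log2 fold change of 0.27 (SE 0.57) in miR-23a KO and 0.08 (SE 0.16) in miR-27a KO. With the GC and length correction these values were -0.37 and -0.19, so neither direction held, and leaving out miR-23a KO replicate 2 gave -0.48 there. The ratio of GCLC to GCLM CPM in the same library was 2.48 and 2.96 for the Scr libraries, 2.47 and 3.55 for those of miR-23a KO, and 2.66 and 2.93 for those of miR-27a KO. In miR-23a KO the ratio differed less between replicates than GCLC, which differed 3.08-fold, while in Scr the ratio differed more than GCLC.

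SLC7A11 (Entrez gene 23657, chr4:138164097-138242349, minus strand) encodes the cystine importer that feeds glutathione synthesis. It was the member with the lowest CPM, at 16.9 and 12.9 CPM in Scr, 9.89 and 24.0 CPM in miR-23a KO, and 11.5 and 12.0 CPM in miR-27a KO. The miR-27a KO libraries were below Scr and the miR-23a KO libraries on both sides of it. The log2 fold change was -0.35 (SE 0.20) in miR-27a KO and 0.28 (SE 0.61) in miR-23a KO, the latter -0.55 with the GC and length correction and -0.59 without replicate 2. The value in miR-27a KO was -0.13 without Scr replicate 1 and -0.52 without Scr replicate 2.

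TXNRD1 and SRXN1 belong to the thioredoxin and peroxiredoxin system. TXNRD1 (Entrez gene 7296, chr12:104215779-104350305, plus strand), the cytosolic thioredoxin reductase, was at 141 and 108 CPM in Scr, 109.8 and 202 CPM in miR-23a KO, and 157 and 159 CPM in miR-27a KO. Both miR-27a KO libraries were above both Scr libraries, and its log2 fold change of 0.34 (SE 0.14) was the most positive of the members there, with an adjusted p of 0.168 in edgeR's quasi-likelihood test after Benjamini-Hochberg adjustment. It was 0.55 without Scr replicate 1 and 0.16 without Scr replicate 2. In miR-23a KO the log2 fold change was 0.41 (SE 0.50), and -0.18 without replicate 2. SRXN1 (Entrez gene 140809, chr20:646615-653370, minus strand), the sulfiredoxin that repairs overoxidised peroxiredoxins, was at 186 and 136 CPM in Scr, 114 and 142 CPM in miR-23a KO, and 156 and 149 CPM in miR-27a KO. SRXN1 overlapped Scr in both knockouts, with log2 fold changes of -0.25 (SE 0.45) in miR-23a KO and -0.08 (SE 0.16) in miR-27a KO. With the GC and length correction these values were -0.09 and 0.12. The value in miR-23a KO was -0.05 without Scr replicate 1 and -0.49 without miR-23a KO replicate 2.

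AKR1C1 (Entrez gene 1645, chr10:4963253-4983283, plus strand) encodes an aldo-keto reductase and had the highest CPM of the members, at 3233 and 2376 CPM in Scr, 2599.8 and 2328 CPM in miR-23a KO, and 2053 and 2098 CPM in miR-27a KO. The miR-27a KO libraries were below both Scr libraries, and the miR-23a KO libraries overlapped Scr. The value in miR-27a KO was -0.19 without Scr replicate 1 and -0.64 without Scr replicate 2. With all libraries the log2 fold change there was -0.44 (SE 0.16), with an adjusted p of 0.138 in edgeR's quasi-likelihood test after Benjamini-Hochberg adjustment and 0.0447 in DESeq2 with Benjamini-Hochberg adjustment. In miR-23a KO it was -0.12 (SE 0.51). AKR1C1 shares long near-identical stretches with AKR1C2 and AKR1C3, so these levels are uncertain, since reads could be divided among the copies. AKR1C2 was at 64.3 and 36.2 CPM in Scr, 7.53 and 19.8 CPM in miR-23a KO, and 9.21 and 10.1 CPM in miR-27a KO, and AKR1C3 lay between 165 and 248 CPM in the 6 libraries.

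Levels between genes were compared per kilobase of the longest annotated transcript, averaged over Scr. AKR1C1 (418 CPM per kb) and NQO1 (383 CPM per kb) were highest, followed by HMOX1 (95.1), SRXN1 (59.6) and KEAP1 (49.7 CPM per kb). TXNRD1 (29.1), NFE2L2 (28.4) and GCLC (13.2 CPM per kb) came next, and GCLM (3.86) and SLC7A11 (1.545 CPM per kb) were lowest. TXNRD1 and NFE2L2 are not ordered beyond their spread. The Scr ranges of AKR1C1 and NQO1 also overlap per kilobase, although AKR1C1 was above NQO1 within each Scr library at these lengths. The levels depend on the transcript assumed: on the shortest coding transcript AKR1C1 would be at 3268 and NQO1 at 1253 CPM per kb, and the middle of the order turns, with TXNRD1 (67.3) above SRXN1 (59.6), NFE2L2 (58.6) and KEAP1 (55.4 CPM per kb).

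When the knockouts were compared with each other, 0 of the 10 members and 0.0% of the 13841 genes tested were called by edgeR's quasi-likelihood test, an unadjusted p under 0.05 was reached by 0 members and 1207 genes, and DESeq2 called 0 members and 477 genes. The median log2 difference, miR-23a KO minus miR-27a KO, was 0.28 over the members and 0.11 over all genes. KEAP1 had the largest difference of the members, 0.58 (SE 0.41), with both miR-23a KO libraries above both miR-27a KO libraries and an adjusted p of 0.795 in edgeR's quasi-likelihood test after Benjamini-Hochberg adjustment. With the GC and length correction KEAP1 had 0.31 and NFE2L2 0.44, so KEAP1 was not the largest there. KEAP1 being called in miR-27a KO and not in miR-23a KO is thus not a shown difference between the knockouts.

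The members differed among themselves in how the miR-23a KO libraries lay apart. Replicate 2 over replicate 1 was 3.08 for GCLC, 2.43 for SLC7A11, 2.38 for NFE2L2, 2.15 for GCLM and 1.84 for TXNRD1, which have a GC content of 35.4% to 45.6%. It was 0.57 for KEAP1 and 0.562 for HMOX1, at 60.3% and 58.1% GC, and 1.24 for SRXN1 at 53.6% GC. Over all genes tested, the median of that ratio was 2.04 for the 4381 genes under 45% GC, 1.11 for the 4173 genes from 45% to 55%, and 0.491 for the 4299 genes at 55% or more. NQO1 (0.519 at 46.0% GC) and AKR1C1 (0.895 at 42.4% GC) were lower in replicate 2 than most genes of similar GC content. What made the libraries differ along GC content was not tested.

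**Figure D3:**
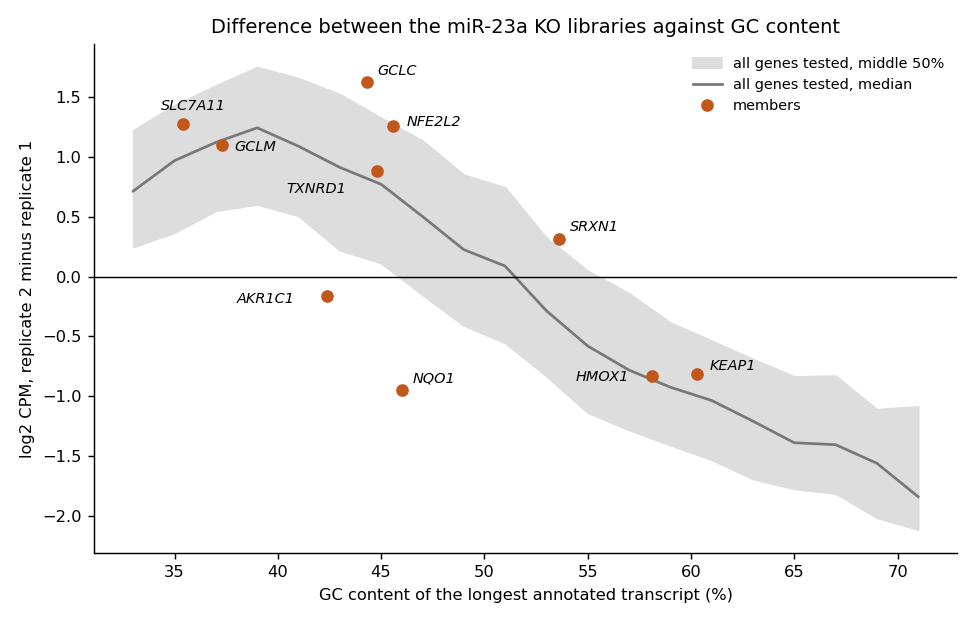
Log2 CPM of miR-23a KO replicate 2 minus replicate 1 (vertical axis) against the GC content of the longest annotated transcript (horizontal axis, %), for the 10 members as points, with the median and middle 50% of all genes tested in classes of GC content 2 points wide. Genes of low GC content were higher in replicate 2 and genes of high GC content lower, while NQO1 and AKR1C1 lay below the middle 50% of genes of their class, and GCLC lay above it.

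Around the core, 95 further genes in 9 lists were examined, of which 90 were tested in each comparison. In miR-27a KO, 7 of the 90 were called higher and 11 lower, where 4.91% and 9.12% of all genes tested were called, and in miR-23a KO 0 were called by edgeR's quasi-likelihood test, with 4 at an unadjusted p under 0.05. The median log2 fold change of the 90 was -0.14 in miR-27a KO and -0.08 in miR-23a KO, against 0.01 and 0.16 over all genes. The counts per list below are to be read beside these shares. Of the called genes named below, CBR1 and VLDLR alone kept their call in the fit of all 6 libraries. TXNIP, SESN1, SESN2, SLC40A1 and ABCC5 were not called without the filter on low counts, and GPX3 and PRDX2 were not called with a replicate block. CBR1, VLDLR, GLRX, SOD2, CAT and AKR1C2 kept their call with either miR-27a KO library left out, and the others lost it with at least 1 of them left out. The adjusted p-values of the genes named below as called lay between 0.00204 and 0.0479 in edgeR's quasi-likelihood test after Benjamini-Hochberg adjustment over all genes tested.

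Among 14 regulators and partners of NRF2, 1 of 13 tested was called, NFE2L3, which encodes the related factor NRF3. NFE2L3 was at 13.6 and 9.997 CPM in Scr, 0.532 and 4.68 CPM in miR-23a KO, and 27.3 and 28.4 CPM in miR-27a KO. All 3 groups were separate, with miR-27a KO highest (log2 fold change 1.23, SE 0.19) and miR-23a KO lowest (-2.04, SE 0.94). The partner MAFK (-0.63, SE 0.20 in miR-27a KO), PALB2 (0.97, SE 0.64 in miR-23a KO) and the ligase subunit CUL3 (0.58, SE 0.51, miR-23a KO minus miR-27a KO) had large values without a call. PALB2 was at 9.31 and 13.6 CPM in Scr and 11.5 and 30.5 CPM in miR-23a KO. CUL3 was at 29.3 and 70.7 CPM in miR-23a KO and 32.3 and 34.7 CPM in miR-27a KO. The values of PALB2 and CUL3 thus rested on miR-23a KO replicate 2.

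Of the glutathione list, 1 of 14 tested was called higher and 1 lower in miR-27a KO. The lower gene was GLRX, which encodes glutaredoxin, at 179 and 185 CPM in Scr, 191 and 181 CPM in miR-23a KO, and 53.4 and 54.1 CPM in miR-27a KO. The 4 libraries of Scr and miR-23a KO were close together, and the miR-27a KO libraries stood below them (log2 fold change -1.76, SE 0.08). GPX3, a secreted glutathione peroxidase, was called higher (0.41, SE 0.08), and GPX4, which protects lipids, had 0.79 (SE 0.68) in miR-23a KO without a call. GPX4 was at 686 and 565 CPM in Scr and 1743 and 385 CPM in miR-23a KO. The miR-23a KO libraries thus lay on either side of Scr for GPX4. GPX8 was covered by 2 and 3 counts in Scr, 17 and 52 counts in miR-23a KO, and 1 count in each miR-27a KO library, and its 3.61 (SE 0.96) in miR-23a KO was not called. CHAC1 (-1.23, SE 0.72) and GSTM3 (-0.97, SE 0.36) were not called in miR-27a KO. CHAC1 was at 14.0 and 2.90 CPM in Scr and 3.88 and 3.37 CPM in miR-27a KO. Its negative value thus rested on Scr replicate 1.

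In the thioredoxin and peroxiredoxin list of 13 genes, 1 was called higher and 3 lower in miR-27a KO. TXNIP, the thioredoxin inhibitor, was at 141 and 80.4 CPM in Scr, 32.5 and 90.1 CPM in miR-23a KO, and 45.9 and 43.9 CPM in miR-27a KO, a log2 fold change of -1.31 (SE 0.27) in the latter. Without Scr replicate 1 it was -0.84 for TXNIP and -0.52 for SESN2. SESN2 (-0.81, SE 0.19) and PRDX2 (-0.42, SE 0.08) were lower and SESN1 (0.59, SE 0.12) higher, and these 3 calls were lost with the GC and length correction, where the values were -0.51, -0.14 and 0.43. Sestrins are stress-induced regulators of peroxiredoxins and growth signalling.

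In the NADPH list, 0 of 7 tested genes were called in either knockout by edgeR's quasi-likelihood test, with 1 at an unadjusted p under 0.05 in miR-27a KO and 0 in miR-23a KO. The median log2 fold change was -0.22 in miR-27a KO and -0.25 in miR-23a KO. ME1 had at most 1 count in any library and was not tested. Of the 9 haem and iron genes, 1 was called lower in miR-27a KO, SLC40A1, the iron exporter ferroportin. SLC40A1 was at 43.2 and 82.3 CPM in Scr, 53.9 and 84.9 CPM in miR-23a KO, and 23.02 and 24.8 CPM in miR-27a KO, where the log2 fold change was -1.40 (SE 0.31), and -0.85 without Scr replicate 2. BLVRA (-0.45, SE 0.11) and FTL (-0.41, SE 0.10) were next in that knockout, without a call.

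In the carbonyl and quinone reduction list, 2 of 16 tested genes were called higher and 4 lower in miR-27a KO. CBR1, carbonyl reductase, was at 24.96 and 22.8 CPM in Scr, 30.6 and 19.7 CPM in miR-23a KO, and 1.94 and 1.87 CPM in miR-27a KO. It was low, with 32 and 31 counts, in the miR-27a KO libraries alone (log2 fold change -3.65, SE 0.19). AKR1C2 (-2.39, SE 0.30) and AKR1B1 (-1.01, SE 0.16) were also lower, and PTGR1, a reductase of prostaglandins and leukotrienes, was higher (1.49, SE 0.23). In miR-23a KO, ALDH3A1 (-3.30, SE 0.83) and AKR1C2 (-1.78, SE 0.63) had the largest values without a call.

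Of the 6 export pumps, ABCC5 was called lower in miR-27a KO (-0.67, SE 0.15), ABCC1 had -0.54 (SE 0.14) without a call, and ABCC4 had -2.27 (SE 0.75) in miR-23a KO without a call. Outside the NRF2 core, 2 of 3 tested superoxide and peroxide enzymes were called higher in miR-27a KO. SOD2, the mitochondrial superoxide dismutase, was at 132 and 103 CPM in Scr, 89.0 and 146 CPM in miR-23a KO, and 345 and 351 CPM in miR-27a KO (log2 fold change 1.56, SE 0.14). CAT, catalase, was at 110.3 and 136 CPM in Scr, 76.7 and 90.4 CPM in miR-23a KO, and 238 and 236 CPM in miR-27a KO (0.94, SE 0.12). Both genes were thus highest in the miR-27a KO libraries, where NQO1 and HMOX1 were below the Scr range. In a list of 9 genes made up of ATF4, a factor that also regulates SLC7A11, and its targets, VLDLR was called lower (-3.41, SE 0.26), and the median log2 fold change was -0.48 in miR-27a KO and -0.56 in miR-23a KO. ASNS, asparagine synthetase, was at 263 and 97.9 CPM in Scr, 96.6 and 52.4 CPM in miR-23a KO, and 54.8 and 56.5 CPM in miR-27a KO, without a call.

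**Figure D4:**
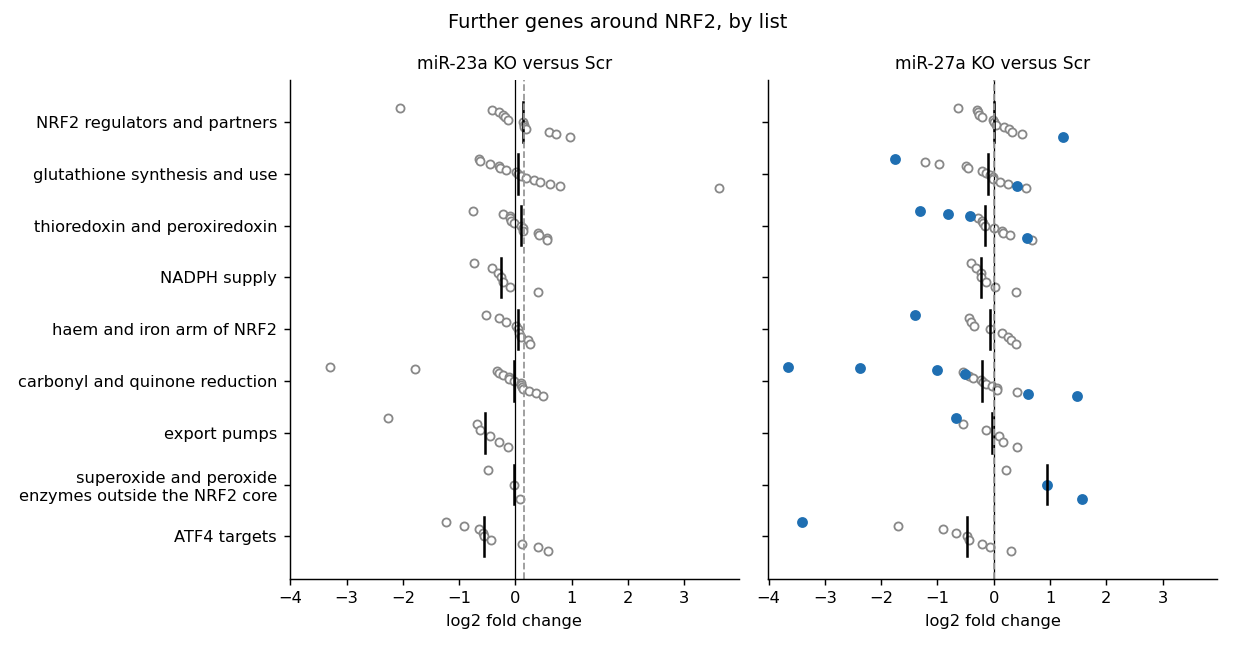
Fitted log2 fold change of the tested genes of the 9 further lists in miR-23a KO (left) and miR-27a KO (right), with filled points for genes called at an adjusted p under 0.05, bars for the median of each list and a dashed line for the median of all genes tested. Filled points appear in miR-27a KO alone, where CBR1 (-3.65) and VLDLR (-3.41) are the lowest and SOD2 (1.56) is the highest.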

How the data were processed

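The authors deposited expected counts per gene for the 6 libraries, in columns whose names say FPKM. They were taken for expected counts since library sums vary and whole numbers made up 34.5% to 40.8% of a library's values above 0. The submitters' processing notes name HISAT, StringTie, Cufflinks and GATK without roles, and the tool behind the counts and the genome build are not given in the sources used here. The labels and the study's methods name different library kits. The label for cell type does not describe HepG2 and was set aside. Of the value columns, 0 were left unused.

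Expected counts were rounded, filtered with filterByExpr, scaled by TMM and tested for each pair of groups with glmQLFit and glmQLFTest (edgeR 4.0.16, R 4.3.3), with Benjamini-Hochberg adjustment over all genes tested and calls at an adjusted p under 0.05. At the study's thresholds (fold change over 1.5, adjusted p under 0.001), 4 genes were called in miR-27a KO and 0 in miR-23a KO, 0 of them members. The alternatives tried were DESeq2 1.42.0, median-ratio scaling, keeping low counts, 1 fit over the 6 libraries, a block for replicate number, a loess correction for GC content and length (span 0.5, degree 2) with and without that block, and each library left out in turn. GENCODE 29 gave a length for 17620 of the 20026 genes. The workflow was tested on simulated data. The members and lists were chosen with earlier results of these data known. Of each further list, up to 4 called genes and up to 2 others with the largest absolute log2 fold change per comparison could be named.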

Additional observations from a re-analysis of the deposited data

Results flagged for a closer look

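Of the genes of the further lists called in miR-27a KO and named in the report, those were set apart here whose miR-23a KO libraries all lay on one side of Scr and whose miR-27a KO libraries all on the other. This held for NFE2L3, PTGR1, CAT and GPX3, and in each the miR-23a KO libraries were below Scr and the miR-27a KO libraries above it. They were among the 7 of 90 further genes called higher in miR-27a KO, where 11 were called lower. The calls came from the same libraries, so the miR-27a KO side of the pattern was largely set by the selection. The pattern in this direction, lower in miR-23a KO and higher in miR-27a KO, was present in 4.37% of the 13556 genes tested in both knockouts. It was present in 24.0% of the 645 of these that were called higher in miR-27a KO. The opposite direction was not counted over all genes. The difference itself, miR-23a KO minus miR-27a KO on the log2 scale, was put to edgeR's quasi-likelihood test after Benjamini-Hochberg adjustment, and none of the 4 genes passed. For NFE2L3 it was -3.38 (SE 0.99), with an adjusted p of 0.387 in edgeR's quasi-likelihood test after Benjamini-Hochberg adjustment. PTGR1 had -1.83 (SE 0.39), with an adjusted p of 0.208 in edgeR's quasi-likelihood test after Benjamini-Hochberg adjustment, from 4.38 and 3.445 CPM in Scr, 3.12 and 3.01 CPM in miR-23a KO, and 10.7 and 11.3 CPM in miR-27a KO. CAT had -1.50 (SE 0.33), with an adjusted p of 0.228 in edgeR's quasi-likelihood test after Benjamini-Hochberg adjustment. GPX3 had -1.08 (SE 0.64), with an adjusted p of 0.769 in edgeR's quasi-likelihood test after Benjamini-Hochberg adjustment, from 443 and 413.1 CPM in Scr, 412.7 and 124 CPM in miR-23a KO, and 569 and 571 CPM in miR-27a KO. The GPX3 gap between Scr and miR-23a KO replicate 1 was thus under 1 CPM.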

How the results depend on the processing

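In miR-27a KO, the members called were 1 (KEAP1) with median-ratio scaling, 4 (AKR1C1, NQO1, HMOX1 and KEAP1) by DESeq2, 0 without the filter, 0 in the fit of all 6 libraries, and 1 (NQO1) with the GC and length correction. The genes called were 1938, and 1043 without the filter and 64 in the fit of all 6 libraries, where the wide miR-23a KO pair enters the dispersion. In miR-23a KO, 0 members were called in these settings, and the genes called were 63 by DESeq2, 10 without the filter, 3 in the fit of all 6 libraries and 3 with the GC and length correction. Between the knockouts the genes called were 477 by DESeq2, 218 in the fit of all 6 libraries and 300 with the GC and length correction.

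The replicate numbers give no pairing by the labels, and deviations of same-numbered libraries correlated over genes at 0.15 (miR-23a KO and Scr), 0.01 (miR-27a KO and Scr) and 0.02 (between the knockouts). With the replicate block, 2 members (NQO1 and HMOX1) were called in miR-27a KO, with 2237 genes, 0 members and 69 genes in miR-23a KO, and 0 members and 400 genes between the knockouts. With the block and the GC and length correction together, 27 genes were called in miR-23a KO and 589 between the knockouts.

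Signs of log2 fold changes turned under the GC and length correction, with the value under correction and block together given after it, and the cause was not tested. In miR-23a KO they were -0.37 and -0.32 for GCLM and -0.55 and -0.46 for SLC7A11, and the members' median was -0.03 and -0.07. In miR-27a KO they were -0.0017 and -0.0026 for GCLC, -0.19 and -0.15 for GCLM, and 0.12 and 0.13 for SRXN1. Between the knockouts they were -0.17 and -0.17 for GCLM, 0.15 and 0.14 for TXNRD1, and 0.15 for NQO1 with the correction alone. The correction and the block together moved the median of all genes by -0.10 in miR-23a KO and -0.10 between the knockouts.

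When a library was dropped, the lone library of a group was assumed to vary like the other group, so the number of calls followed the pair that was kept. The genes called then numbered 4 to 2630 (miR-23a KO), 334 to 7066 (miR-27a KO) and 72 to 9665 (between the knockouts), and the members called from 0 to 2, from 0 to 8 and from 0 to 9. The members' median lay within -0.41 to 0.25 for miR-23a KO, within -0.33 to -0.16 for miR-27a KO and within -0.33 to 0.26 between the knockouts. The median of all genes moved by -0.20 and -0.23 in miR-23a KO, and by -0.10 and -0.19 between the knockouts, when its replicates 1 and 2 were left out. In miR-23a KO the log2 fold change changed sign within -0.66 to 0.84 for NFE2L2, -0.20 to 0.57 for KEAP1, -0.53 to 0.26 for HMOX1 and -0.60 to 1.07 for GCLC. It did so within -0.48 to 0.67 for GCLM, -0.18 to 0.75 for TXNRD1, -0.59 to 0.73 for SLC7A11 and -0.33 to 0.0811 for AKR1C1. In miR-27a KO the range was -0.65 to 0.44 for NFE2L2, -0.0473 to 0.23 for GCLM and -0.29 to 0.17 for SRXN1. Between the knockouts it was -0.45 to 0.80 for NFE2L2, -0.76 to 0.20 for NQO1, -0.11 to 0.74 for HMOX1 and -0.73 to 0.88 for GCLC. There it was also -0.55 to 0.54 for GCLM, -0.52 to 0.35 for TXNRD1 and -0.24 to 1.02 for SLC7A11.

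Detection limited little here, since the least abundant member, SLC7A11, had at least 130 counts in each library. With 2 libraries per group, the spread between replicates limited what could be called. Its coefficient of variation, fitted over the knockout and Scr libraries together, was 0.446 in the miR-23a KO comparison and 0.159 in the miR-27a KO comparison.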

Other observations

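The profile of NFE2L2 over the 6 libraries, as log2 CPM centred on the Scr mean, was nearest to those of ABCA1 (root mean square difference 0.10), ZFX (0.14) and LOC101927100 (0.14), where the median over the 13555 other genes was 0.68. ABCA1 was at 20.9 and 44.0 CPM in Scr, 17.7 and 52.9 CPM in miR-23a KO, and 29.7 and 27.998 CPM in miR-27a KO, so it too was low in replicate 1 of Scr and of miR-23a KO. GCLC, the member with the widest range, was nearest to LUZP1 (0.06), NRDC (0.07) and SCRN1 (0.07), against a median of 0.67. LUZP1 was at 54.8 and 55.5 CPM in Scr, 38.03 and 110.8 CPM in miR-23a KO, and 61.7 and 65.1 CPM in miR-27a KO. The gap between the miR-23a KO libraries is the widest part of the GCLC profile.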
